A study of Mus musculus with 60 samples.

Results

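Kidney and small intestine both carry an absorbing epithelium with a brush border, the dense carpet of microvilli on the cell side that faces the lumen. The comparison here set the 4 kidney libraries against the 4 small intestine libraries, chosen by the tissue named in the sample labels, out of 60 libraries in all. The series profiled RNA of 15 whole tissues with 4 libraries a tissue. The mice were female C57BL6/J animals of 6 weeks, and none of the labels names a treatment, transgene or mutation. Blood was flushed out with PBS and EDTA before dissection. By the labels both groups share strain, sex, age and this perfusion and differ in tissue. The labels number the libraries of each tissue from 1 to 4 without tying a number to a mouse or naming the stretch of intestine. The p-values therefore measure the spread between these libraries, which may be technical. RNA was fragmented and primed with barcoded oligo(dT), so reads came from the 3′ ends of polyadenylated transcripts, and levels are in CPM, a gene's reads relative to the scaled total of its library. Such levels compare a gene between tissues and not different genes.

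In the small intestine, enterocytes on the villi cut sugars and peptides at the brush border and take up the products with lipids, bile acids, vitamins and minerals. The crypts beneath them hold dividing stem cells and Paneth cells, which secrete antimicrobial peptides. In the kidney, the proximal tubule takes glucose, amino acids, phosphate, peptides and filtered proteins back from the glomerular filtrate and secretes organic anions and cations, and later nephron segments tune salt, acid and water. Many of the carriers of both epithelia are members of the same solute carrier (Slc) families. Whole tissue was measured, so fewer cells of a type and less RNA per cell cannot be told apart.

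The kidney libraries held 3484482 to 4032245 counted reads and the small intestine libraries 2072584 to 3035803. Mitochondrial ribosomal RNA took 27.5% to 28.9% of the kidney reads and 7.52% to 9.59% of the intestinal reads, and mitochondrial protein-coding RNA took 8.47% to 9.37% and 3.35% to 4.04%. The nuclear RNA Malat1 took 0.685% to 0.771% of the kidney reads and 0.131% to 0.170% of the intestinal ones. Spearman correlations of log2 CPM over the tested genes had a median of 0.983 among kidney libraries, 0.973 among intestinal libraries and 0.574 between the tissues.

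Some libraries stood apart from the others of their tissue. Kidney replicate 4 held genes of the adrenal gland, which sits on top of the kidney. Cyp11a1, the first enzyme of steroid hormone synthesis, stood at 0, 0.281, 1.62 and 64.4 CPM in the 4 kidney libraries. Star, which carries cholesterol into mitochondria for that synthesis, stood at 3.83, 5.89, 12.1 and 189 CPM. Both were highest in replicate 4, where the 10 genes of the adrenal list summed to 511 CPM against 7.11 to 24.02 CPM in the other kidney libraries. The intestinal libraries differed in genes of particular stretches of the gut, a group put together after their values were seen. Tff2, a peptide of the duodenal glands and the stomach, stood at 6.98, 10.98, 274 and 2208 CPM, and Muc6, their mucin, at 2.21, 1.06, 25.05 and 403 CPM. Fabp6, the bile acid binding protein of the ileum, stood at 3757, 3979.9, 3082 and 1762 CPM. Replicate 4 was thus highest in the duodenal gland genes and lowest in Fabp6, and replicate 3 came second in Tff2 and Muc6. The summed CPM of the pancreas acinar list was 41.5, 46.4, 145 and 462 in the 4 intestinal libraries, again highest in replicate 4. In kidney the same list summed to 135 to 155 CPM. It includes Cela1, which tissues other than pancreas also make. For some genes, values without kidney replicate 4 or small intestine replicates 3 and 4 are given below as well. Other genes also shifted without these libraries, and for them only values of all libraries are given.

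**Figure D1:**
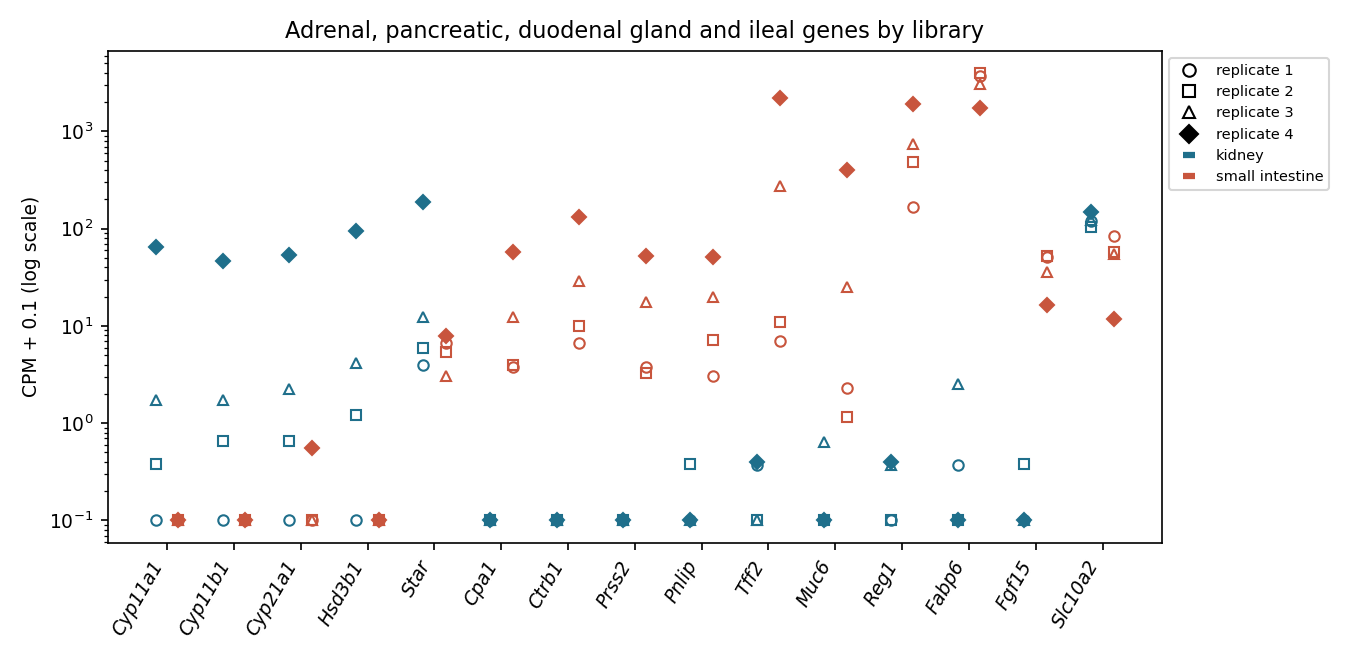
Level of adrenal genes (Cyp11a1 to Star), pancreatic genes (Cpa1 to Pnlip), duodenal gland genes (Tff2, Muc6), Reg1 and ileal bile acid genes (Fabp6, Fgf15, Slc10a2) in each library, as CPM with an offset of 0.1 on a log axis. Symbols mark replicates and colours mark tissues: kidney replicate 4 is the highest kidney library for the 5 adrenal genes, and small intestine replicate 4 is the highest intestinal library for Tff2 and Muc6 and the lowest for Fabp6.

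Markers of one tissue were mostly present at traces in the other, with exceptions. The 10 Paneth cell genes stood in kidney at 0% to 0.0473% of their intestinal level (median 0.0229%), and the 14 enterocyte genes at 0.00578% to 19.4% (median 0.198%). In small intestine the 18 tested genes of later nephron segments stood at 0% to 13.6% of their kidney level (median 0.0387%), and the 14 proximal tubule genes at 0% to 92.9% (median 0.0496%). Defa24, a Paneth cell defensin, had the most intestinal reads of its list and a kidney level of 8.39 ± 1.81 CPM against 26544 ± 5925 CPM in small intestine. The libraries were barcoded and pooled, and whether these traces are RNA of the tissue or of other libraries in the pool was not tested.

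Of 54532 genes, 12775 had enough reads to be tested with edgeR's quasi-likelihood test. A gene was called when its Benjamini-Hochberg adjusted p was below 0.05 and its level differed by more than 2-fold, that is, by more than 1 on the log2 scale. By this rule 2669 genes (20.9% of those tested) were higher in kidney and 2645 (20.7%) higher in small intestine, so 41.6% were called, and the median log2 fold change of all tested genes was 0.01. Positive log2 fold changes mean higher in kidney, and each is followed by its standard error. The 4 kidney libraries did not overlap the 4 intestinal ones for 65.2% of the tested genes. With scaling by library totals alone, the median of all genes shifted by -0.20 and the calls split into 2290 higher in kidney and 3054 higher in small intestine, 42.9% and not 50.2% of calls being higher in kidney. Where a gene is called higher or lower below, its adjusted p was at most 0.0079 unless given. A level in one tissue followed by "against" is the mean ± SD over the 4 kidney libraries and then over the 4 intestinal libraries. For genes with 0 reads in a tissue the fold is a lower bound, computed from 3 reads over the 4 pooled libraries. For genes with few reads in one tissue the fold depends on single libraries: Sis, described next, moved from -11.93 ± 0.26 to -13.15 without kidney replicate 3.

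The tissue labels were checked with defining genes, whose positions are on build mm10. Slc34a1 is the sodium-phosphate carrier of the proximal tubule (ENSMUSG00000021490, chr13:55398187-55415592, plus strand). Lct splits lactose (ENSMUSG00000026354, chr1:128284756-128328318, minus strand), and Sis splits sucrose and starch products (ENSMUSG00000027790, chr3:72888557-72967863, minus strand). Slc34a1 stood at 2748, 2740.2, 2698 and 2633 CPM in kidney and at 1.47, 0.708, 0.295 and 0 CPM in small intestine. Lct stood at 0.821, 0.561, 0 and 0.607 CPM in kidney and at 1282, 894, 748 and 1221 CPM in small intestine. Sis stood at 0, 0, 0.81 and 0.304 CPM in kidney and at 1249, 1220.3, 1086 and 1437 CPM in small intestine. All 3 separated the tissues without overlap, as did 65.2% of all tested genes, Slc34a1 being high in kidney and Lct and Sis in small intestine. Their log2 fold changes were 11.98 ± 0.23 (adjusted p = 3.48e-18), -10.93 ± 0.30 (adjusted p = 1.51e-16) and -11.93 ± 0.26 (adjusted p = 9.12e-18). Of the 15 proximal tubule markers, 12 of 14 tested were higher in kidney, and the other 2, Aqp1 and Cubn, were not called. All 18 tested genes of later nephron segments were higher in kidney and all 14 tested enterocyte markers were higher in small intestine. The shares of all tested genes were 20.9% higher in kidney and 20.7% higher in small intestine.

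The regulatory start regions of Sis, Lct and Alpi, intestinal alkaline phosphatase, are shown because these genes carry the largest separations toward small intestine among the brush border hydrolases.
Each window runs from 250 bases before to 50 bases after the annotated start, from RefSeq on GRCm38.p6, read 5′ to 3′ on the gene's strand.
Capitals mark short strings of letters that belong to the recognition sites of transcription factors of these epithelia, searched on both strands: TTTATG for Cdx factors, AGATAA for Gata factors and CAAAGTCCA for Hnf4.
None of these strings contains another, and a match describes letters only.
The windows lie at chr3:72967814-72968113, minus strand (Sis), chr1:128328269-128328568, minus strand (Lct) and chr1:87101557-87101856, minus strand (Alpi).
Sis: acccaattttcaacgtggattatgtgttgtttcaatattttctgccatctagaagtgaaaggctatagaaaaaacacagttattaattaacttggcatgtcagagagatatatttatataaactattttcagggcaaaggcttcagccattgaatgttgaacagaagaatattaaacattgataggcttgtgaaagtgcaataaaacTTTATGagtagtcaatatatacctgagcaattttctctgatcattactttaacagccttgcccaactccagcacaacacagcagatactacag
Lct: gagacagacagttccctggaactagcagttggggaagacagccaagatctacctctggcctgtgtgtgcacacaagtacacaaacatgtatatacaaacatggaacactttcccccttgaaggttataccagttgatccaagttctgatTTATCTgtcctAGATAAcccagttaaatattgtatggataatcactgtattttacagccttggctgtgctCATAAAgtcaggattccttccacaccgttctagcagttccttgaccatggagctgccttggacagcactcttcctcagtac
Alpi: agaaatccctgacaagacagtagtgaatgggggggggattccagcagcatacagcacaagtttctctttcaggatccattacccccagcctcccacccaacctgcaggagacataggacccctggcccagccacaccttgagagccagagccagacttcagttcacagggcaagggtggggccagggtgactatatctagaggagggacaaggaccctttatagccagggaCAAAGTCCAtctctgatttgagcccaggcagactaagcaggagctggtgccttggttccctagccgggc

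The Sis window held the Cdx string 43 bases before the start. In the Lct window the Cdx string lay 31 bases before the start on the other strand, and Gata strings lay 101 and 90 bases before it, one on each strand. The Alpi window held the Hnf4 string 19 bases before the start. TTTATG was found in 6.62% of the 9697 tested genes with a window, in 7.44% of those higher in small intestine and in 7.94% of those higher in kidney. AGATAA was found in 6.65%, 8.67% and 6.62% in the same order, and CAAAGTCCA in 0.485%, 0.974% and 0.458%.

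The largest separations in kidney were genes of the tubule. By log2 fold change among genes of at least 50 CPM these included Umod, Spp2, Ugt3a2, Slc22a6, Tmem52b, Cyp4a31, Acsm1, Slc34a1, Keg1, Miox and Slc12a1. Umod, the most abundant protein of normal urine, made by the thick ascending limb, stood at 513, 563, 647 and 581 CPM in kidney and at 0 in all 4 libraries in small intestine, at least 2138-fold higher in kidney. Slc22a6, the basolateral organic anion carrier of the proximal tubule, stood at 212, 219, 215 and 217 CPM and likewise at 0 in small intestine, at least 801-fold higher in kidney. Miox, the first enzyme of inositol breakdown, stood at 1858 ± 74.6 against 0.555 ± 0.26 CPM, and Slc12a1, the sodium-potassium-chloride carrier that loop diuretics block, at 991 ± 46.6 against 0.272 ± 0.351 CPM. The called nuclear genes with the highest kidney levels included Gpx3, Kap, Napsa and Fxyd2. Gpx3, the plasma glutathione peroxidase that the proximal tubule secretes, stood at 20864 ± 1212 against 89.7 ± 9.1 CPM, and Kap, an androgen-regulated tubule protein, at 10089.9 ± 2165 against 5.08 ± 3.42 CPM. Napsa, an aspartic protease, stood at 3228 ± 182 against 10.7 ± 2.44 CPM, and Fxyd2, a regulator of the sodium pump, at 2777 ± 73.2 against 2.85 ± 1.58 CPM.

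In small intestine the largest separations, with enterocyte and Paneth cell genes among them, were Rbp2, Mptx2, Defa22, Alpi, Defa26, Itln1, Mmp7, Defa29, Defa3, Ifi27l2b, Reg1 and Fabp6. Reg1 stood at 168, 480, 740 and 1929 CPM in the 4 intestinal libraries, highest in replicate 4. Its log2 fold change was -12.16 ± 0.93, -11.35 without small intestine replicate 4 and -11.30 without the 3 libraries that stand apart. Rbp2, the retinol binding protein of enterocytes, stood at 1482, 985, 776 and 1609.9 CPM with 1 read in the 4 kidney libraries together, 16578-fold higher in small intestine with a 95% counting interval of 2975 to 654841. Mmp7, the protease that activates Paneth cell defensins, stood at 246, 278, 229 and 162 CPM with no kidney read, at least 1101-fold higher in small intestine. The called nuclear genes with the highest intestinal levels were Defa24, Lyz1, Defa30, Apoa1 and Fabp2. Lyz1, the Paneth cell lysozyme, stood at 9394 ± 1799 CPM in small intestine, and Defa30 at 8937 ± 2043 CPM. Apoa1, an apolipoprotein of chylomicrons and high-density lipoprotein, stood at 8257 ± 1933 CPM, and Fabp2, the intestinal fatty acid binding protein, at 7772 ± 1450.3 CPM. The defensins are near-identical gene copies, so the split of reads among Defa3, Defa22, Defa24, Defa26, Defa29 and Defa30 is uncertain.

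**Figure D2:**
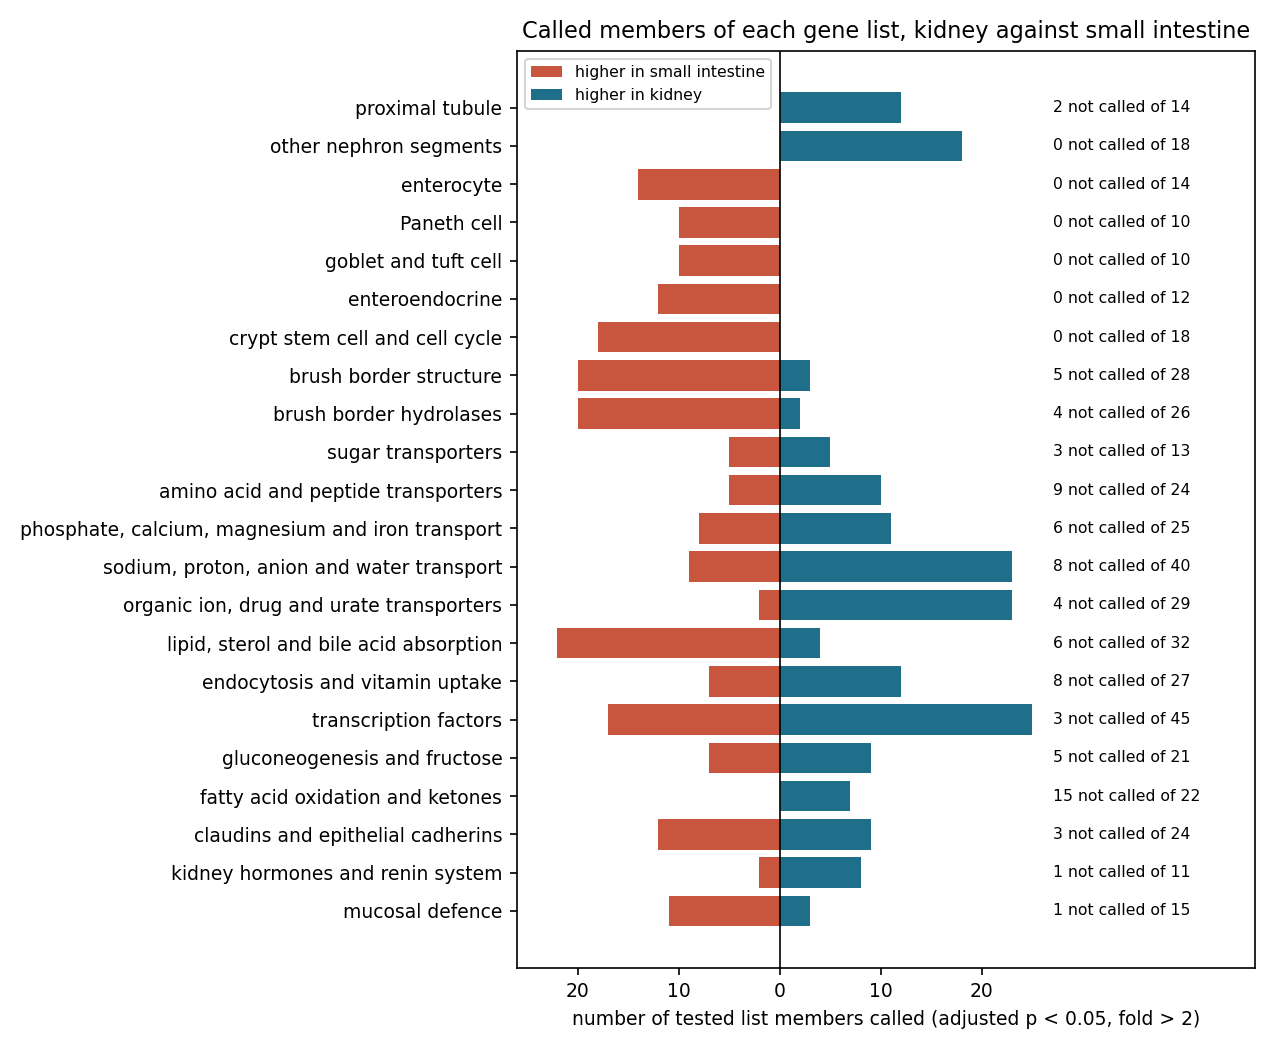
Number of tested members of each gene list called higher in small intestine (bars to the left) or in kidney (bars to the right), with the number not called beside them. Among all tested genes 20.7% were called higher in small intestine and 20.9% higher in kidney. Kidney bars are longer for organic ion, salt and water carriers, and intestinal bars are longer for brush border structure, hydrolases and lipid absorption.

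Sugar handling was divided between different members of the same families. Of 13 tested genes of 14 listed, 5 were higher in kidney and 5 in small intestine, against 20.9% and 20.7% of all tested genes. The other 3 were not called, and the median log2 fold change was -0.53. Slc5a1, the high-affinity sodium-glucose carrier SGLT1 that takes up glucose and galactose, stood at 66.5, 63.99, 72.9 and 70.7 CPM in kidney and 1479, 1311, 968 and 1472 CPM in small intestine. It was present in every library and higher in all 4 intestinal ones, with a log2 fold change of -4.25 ± 0.14. Slc5a10, a sodium-dependent carrier of mannose and fructose, showed the reverse, with 215 ± 5.32 against 0.206 ± 0.24 CPM. Slc5a4b, a close relative of Slc5a1, stood at 157, 118, 92.5 and 159 CPM in small intestine with 1 read in kidney, and its neighbour Slc5a4a at 1.2 ± 0.482 against 49.1 ± 8.88 CPM, and as near copies the 2 may share reads. Slc5a2, the low-affinity glucose carrier SGLT2 of the early proximal tubule, stood at only 6.02, 7.3, 3.78 and 6.68 CPM in kidney and at 0 in small intestine. Its level is uncertain, because the last 1000 bases of Slc5a2 overlap the gene BC017158 on the opposite strand.

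The facilitative sugar carriers Slc2a2, Slc2a5 and Slc2a1 were read in all 8 libraries. Slc2a2, which lets glucose out across the basolateral membrane in both epithelia, stood at 166, 159, 168 and 165 CPM in kidney and 283, 187, 177 and 305 CPM in small intestine, and the 95% interval of its log2 fold change was -0.83 to -0.23. Slc2a5, the fructose carrier, stood at 70.3, 83.4, 78.5 and 77.7 CPM and 125, 101, 105 and 173 CPM, with an interval of -0.98 to -0.40. Both intervals lay within 2-fold in either direction, which is called a like level below when the gene also had at least 20 CPM in both tissues. Such a gene can still differ between the tissues by less than 2-fold. Of 4834 tested genes with that level in both tissues, 67.8% met this criterion. Slc2a1, the glucose carrier of many cell types, and Slc5a3, the inositol carrier by which medullary cells adapt to salt, were higher in kidney, at 49.7 ± 6.11 against 10.2 ± 1.83 CPM and 259 ± 27.6 against 6.7 ± 1.85 CPM. Slc5a11, which carries inositol and glucose, was higher in small intestine at 38.2 ± 0.631 against 86.2 ± 14.2 CPM, and Slc5a9, a sodium-coupled sugar carrier, was at a like level (34.3 ± 3.75 against 32.6 ± 2.54 CPM).

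The enzymes that cut nutrients at the brush border were mostly higher in small intestine. Of the 26 tested genes of 29 listed, 2 were higher in kidney, 20 were higher in small intestine and 4 were not called, against 20.9% and 20.7% of all tested genes, and the median was -2.96. Mgam, which splits starch products, stood at 62.1 ± 2.03 against 1383 ± 236 CPM, so kidney held some of it, whereas Lct and Sis were near 0 there. Treh, which splits trehalose, stood at 19.97, 21.3, 21.6 and 18.8 CPM in kidney and 181, 151, 118 and 216 CPM in small intestine, low in every kidney library and a log2 fold change of -3.01 ± 0.16. Aminopeptidase N, Anpep, stood at 50.8 ± 4.98 against 1757 ± 441 CPM, aminopeptidase A, Enpep, at 57.6 ± 3.85 against 435 ± 81.5 CPM, and the dipeptidyl peptidase Dpp4 at 57.3 ± 1.23 against 389 ± 68.7 CPM. The angiotensin-converting enzyme Ace, which also trims peptides at the brush border, stood at 67.2 ± 9.16 against 725 ± 192 CPM. All 6, Treh included, were called higher in small intestine. None of their libraries overlapped, as for 65.2% of all tested genes.

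Alkaline phosphatases were split by gene. Alpi stood at 0, 0.281, 0 and 0 CPM in kidney and at 760.3, 706, 706 and 1396 CPM in small intestine. Alpl, the tissue-nonspecific form, stood at 195, 198, 196 and 193 CPM in kidney and at 0.368, 1.06, 0.884 and 0.91 CPM in small intestine. Alpi had 1 kidney read in all and was highest in small intestine replicate 4. Alpl was high in the 4 kidney libraries, with a log2 fold change of 7.85 ± 0.17. Folh1, which cleaves glutamate from folates in food and from neuropeptides, was the other hydrolase higher in kidney (99.1, 133, 118 and 118 CPM), with no intestinal read, at least 434-fold higher in kidney. Its relative Naaladl1 went the other way, at 0.851 ± 0.347 against 569.8 ± 169 CPM. Ggt1, the gamma-glutamyl transferase that starts glutathione breakdown, stood at 388, 374, 377 and 431 CPM in kidney and 360.3, 275, 245 and 445 CPM in small intestine, so the groups overlapped and it was at a like level, with an interval of -0.05 to 0.55. Mep1a, a subunit of the metalloprotease meprin, was not called at 649 ± 35.02 against 389.9 ± 116 CPM, whereas the other subunit, Mep1b, was higher in small intestine at 92.98 ± 9.47 against 695 ± 127 CPM.

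Amino acid and peptide carriers included partners that went opposite ways and carriers at like levels. Of 24 tested genes of 28 listed, 10 were higher in kidney and 5 in small intestine, against 20.9% and 20.7% of all tested genes. The median was -0.02, and 9 were not called. Among the 12 with at least 20 CPM in both tissues, 8 were at like levels, near the 67.8% of all tested genes of that abundance. Slc15a1, the low-affinity peptide carrier PEPT1 of enterocytes, stood at 1.92, 1.12, 0.54 and 0.304 CPM in kidney and 539, 463, 338 and 374 CPM in small intestine. Slc15a2, the high-affinity carrier PEPT2, stood at 100.4, 104, 109 and 127 CPM and 2.21, 4.25, 14.1 and 13.2 CPM. The pair was exchanged between tissues without overlap in either gene, with log2 fold changes of -8.71 ± 0.25 and 3.69 ± 0.26, that of Slc15a2 being 4.98 without the 3 libraries that stand apart. Slc6a19, the main sodium-coupled carrier of neutral amino acids in both organs, stood at 255, 215, 236 and 166 CPM and 422, 306, 264 and 313 CPM and was at a like level, with an interval of -0.87 to -0.28. Its relative Slc6a18, a glycine and neutral amino acid carrier, was found almost only in kidney at 375 ± 18.3 against 0.625 ± 0.333 CPM. Cltrn (collectrin), which brings such carriers to the membrane of the tubule, was likewise a kidney gene, at 909 ± 50.5 against 0.913 ± 0.648 CPM.

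The proline carriers Slc6a20a and Slc6a20b are neighbouring copies of one gene in mice. Slc6a20a stood at 15.3, 12.6, 11.3 and 12.7 CPM in kidney and 267, 222, 237 and 267 CPM in small intestine, and Slc6a20b at 176, 157, 177 and 197 CPM and 3.31, 2.83, 3.54 and 7.28 CPM. The first was higher in all 4 intestinal libraries and the second in all 4 kidney libraries, with log2 fold changes of -4.25 ± 0.12 and 5.43 ± 0.17. Both gene ends overlap another gene on the opposite strand, and reads of the 2 copies may be exchanged between them. For the cystine and dibasic amino acid carrier, the light chain Slc7a9 was at a like level (152 ± 2.89 against 217 ± 30.4 CPM). Its log2 fold change was -0.52 ± 0.10. The heavy chain Slc3a1 was higher in kidney (9.56 ± 2.97 against 2.22 ± 1.6 CPM). Its level is uncertain, because its 3′ end overlaps the gene Prepl on the opposite strand. The log2 fold change of Slc3a1 was 2.03 ± 0.38, and 2.71 without small intestine replicate 3. The basolateral exchangers Slc7a7 (60.6 ± 6.27 against 70.7 ± 13.4 CPM) and Slc7a8 (203 ± 8.31 against 201 ± 44.1 CPM) and their heavy chain Slc3a2 (247 ± 17.4 against 283 ± 55.7 CPM) were at like levels. The amino acid carrier Slc7a12 was seen in kidney at 480.2, 399, 465 and 506 CPM with 2 intestinal reads, the largest difference of the list. Its relative Slc7a15 was seen in small intestine (0.139 ± 0.16 against 112 ± 22.2 CPM), and Slc1a1, the glutamate carrier, was higher in kidney (162 ± 5.21 against 48.2 ± 3.49 CPM).

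**Figure D3:**
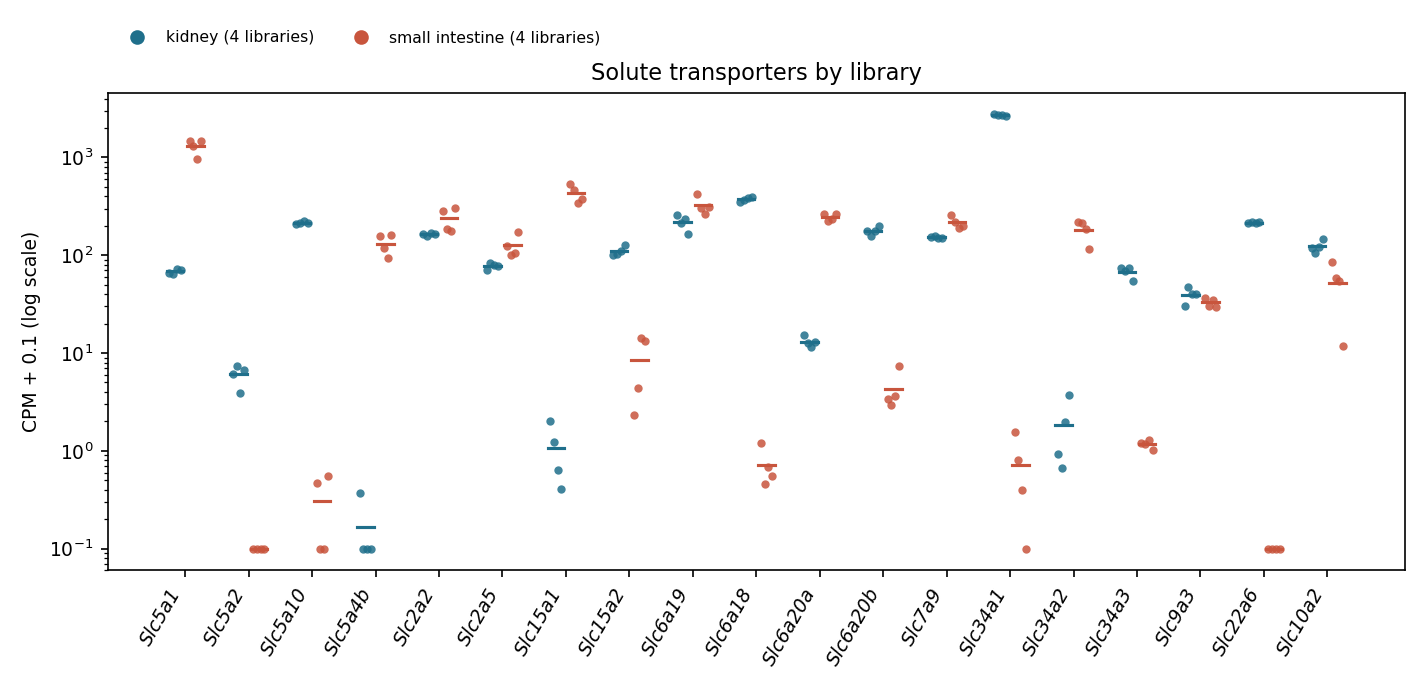
Level of 19 solute carriers in each of the 4 kidney and 4 small intestine libraries, as CPM with an offset of 0.1 on a log axis, with points for libraries and short bars for means. Slc5a1, Slc15a1, Slc6a20a and Slc34a2 are high in the intestinal libraries, Slc5a10, Slc15a2, Slc6a20b and Slc34a1 in the kidney libraries, and Slc2a2, Slc6a19, Slc7a9 and Slc9a3 lie close together.

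Phosphate and calcium carriers formed further pairs. Of 25 tested genes of 27 listed, 11 were higher in kidney and 8 in small intestine, against 20.9% and 20.7% of all tested genes. The median was 0.52, and 6 were not called. Of the sodium-phosphate carriers of the Slc34 family, Slc34a2 stood at 0.821, 0.561, 1.89 and 3.64 CPM in kidney and 216, 211, 185 and 115 CPM in small intestine, opposite to Slc34a1, with a log2 fold change of -6.72 ± 0.29, and -7.57 without the 3 libraries that stand apart. Slc34a3, the carrier of the deeper proximal tubule, followed Slc34a1, at 67.5 ± 9.27 against 1.06 ± 0.113 CPM, and the widely used phosphate carriers Slc20a1 (18.5 ± 4.69 against 22.5 ± 5.54 CPM) and Slc20a2 (34.3 ± 2.95 against 21.2 ± 1.82 CPM) were not called. Kl, the klotho protein through which the phosphate hormone FGF23 acts, stood at 345, 331, 383 and 338 CPM in kidney with 2 intestinal reads. Calb1, the calcium buffer of the distal tubule, stood at 389.6, 336, 391 and 354 CPM in kidney and 0.735, 0, 0 and 0 CPM in small intestine, 2052-fold higher in kidney with a 95% counting interval of 568 to 16945.

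S100g, the smaller calcium buffer calbindin-D9k of duodenum and distal tubule, stood at 1516, 1399.98, 1396 and 1394 CPM in kidney and 29.8, 145, 408 and 991 CPM in small intestine. The kidney libraries were alike and all above the intestinal ones, which ranged widely with replicate 4 highest. It was called higher in kidney with a log2 fold change of 1.87 ± 0.55 (adjusted p = 0.00532), but was not called by the DESeq2 Wald test (adjusted p = 0.0540). Without small intestine replicate 4 the log2 fold change of S100g was 2.86, and without the 3 libraries that stand apart it was 4.02. Slc40a1, the iron exporter ferroportin, also strong in duodenum, stood at 56.4, 46.3, 51.8 and 39.8 CPM in kidney and 9.56, 24.8, 40.7 and 87.3 CPM in small intestine. Replicate 4 was again highest, above all kidney libraries, and the gene was not called (0.30 ± 0.35). Its log2 fold change was 1.56, and called higher in kidney, without the 3 libraries that stand apart, and -0.0155 without small intestine replicate 1. The duodenal gland genes Tff2 and Muc6 were highest in the same library, and their part in these 2 results was not tested.

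Of the vitamin D genes, the receptor was read in both tissues and the inactivating enzyme almost wholly in kidney. Vdr, the vitamin D receptor, stood at 136, 125, 130.4 and 129 CPM in kidney and 285, 235, 258 and 279.8 CPM in small intestine and lay at the 2-fold threshold, at -1.02 ± 0.09, its call being lost without kidney replicate 2 (-0.979), kidney replicate 4 (-0.998) or small intestine replicate 1 (-0.981). Cyp24a1, which inactivates vitamin D and is a target of its receptor, stood at 90.2 ± 31.7 against 0.0737 ± 0.147 CPM. The calcium channel Trpv5 stood at 7.11, 7.86, 5.67 and 6.07 CPM in kidney with no intestinal read, and Trpv6, its intestinal relative, at 1.09, 0.842, 1.35 and 1.21 CPM and 0, 0.708, 3.54 and 8.64 CPM, too low in both to be tested. For iron, the importer Slc11a2 was at a like level (45.8 ± 7.22 against 35.98 ± 10.4 CPM), whereas the ferroxidase Heph (8.45 ± 0.383 against 106 ± 12.1 CPM) and the duodenal ferric reductase Cybrd1 (0.295 ± 0.43 against 7.4 ± 4.33 CPM) were higher in small intestine.

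Carriers of sodium, protons, anions and water were more often higher in kidney. Of 40 tested genes of 40 listed, 23 were higher in kidney and 9 in small intestine, against 20.9% and 20.7% of all tested genes. The other 8 were not called, and the median was 2.00. The sodium-proton exchanger Slc9a3, which drives sodium uptake across both brush borders, stood at 29.8, 46.9, 39.7 and 40.4 CPM in kidney and 36.8, 30.5, 34.8 and 29.6 CPM in small intestine. Its groups overlapped and it was at a like level, with an interval of -0.04 to 0.54. The beta subunit of the sodium pump, Atp1b1 (728 ± 29.2 against 279 ± 36.3 CPM), and the regulator Fxyd2 were higher in kidney. The carriers of later nephron segments stood at or near 0 in small intestine. These were Slc12a3, the thiazide-sensitive sodium-chloride carrier (747 ± 42.1 against 0.729 ± 0.414 CPM), the potassium channel Kcnj1 (151 ± 10.8 against 0.279 ± 0.197 CPM) and the vasopressin-regulated water channel Aqp2 (272 ± 21.9 CPM, 1 intestinal read). The epithelial sodium channel was seen with all 3 subunits in kidney, Scnn1a at 66.7 ± 7.95 against 7.87 ± 2.81 CPM, Scnn1b at 26.3 ± 1.87 against 0 CPM and Scnn1g at 25.3 ± 3.24 against 0 CPM.

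Several anion carriers went the other way. Slc26a3, the chloride-bicarbonate exchanger whose loss causes chloride diarrhoea, stood at 98.9, 85.4, 78.4 and 91.4 CPM in small intestine and 0.357 ± 0.421 CPM in kidney, and Slc26a6, which exchanges chloride with oxalate and bicarbonate, at 8.4 ± 1.65 against 280.03 ± 58.5 CPM. Cftr, the chloride channel of crypt secretion, stood at 5.2, 4.77, 5.94 and 4.86 CPM in kidney and 111, 111, 105 and 119 CPM in small intestine, present at low level in every kidney library, with a log2 fold change of -4.41 ± 0.13. Slc4a4, which moves bicarbonate across the basolateral membrane, was higher in kidney at 929 ± 26.7 against 75.5 ± 5.59 CPM. The citrate and succinate carrier Slc13a2 was higher in small intestine (67.4 ± 5.33 against 225 ± 70.5 CPM) and the sulfate carrier Slc13a1 in kidney (243 ± 19.6 against 74.5 ± 5.76 CPM). Aqp1, the water channel of proximal tubule and of endothelium, was not called at 356, 398, 437 and 469.6 CPM in kidney and 261, 239.8, 212 and 240.2 CPM in small intestine (0.80 ± 0.10).

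The carriers of organic anions, cations, urate and drugs were mostly higher in kidney. Of 29 tested genes of 30 listed, 23 were higher in kidney and 2 in small intestine, against 20.9% and 20.7% of all tested genes. The other 4 were not called, and the median was 4.43. The anion carrier Slc22a8 stood at 533, 488, 498 and 499 CPM in kidney with 3 reads in small intestine, the cation carrier Slc22a2 at 169.8 ± 13.7 CPM with 1 read, and the urate carrier Slc22a12 at 313 ± 96.6 CPM with 3 reads. Carriers shared with other organs were less far apart: the proton-cation exchanger Slc47a1 stood at 233 ± 12.7 against 29.04 ± 11.3 CPM and the urate and drug pump Abcg2 at 322 ± 12.8 against 137 ± 21.7 CPM. The drug pump P-glycoprotein has a pair of genes in mice, and these went opposite ways. Abcb1a stood at 6.02, 4.77, 4.86 and 8.8 CPM in kidney and 169, 167, 135 and 154 CPM in small intestine, and Abcb1b at 13.95, 14.03, 12.4 and 17 CPM and 0.368, 0.708, 1.18 and 0 CPM. All 4 intestinal libraries were higher for Abcb1a (-4.68 ± 0.15) and all 4 kidney libraries for Abcb1b (4.43 ± 0.38). The other member higher in small intestine, the prostaglandin carrier Slco2a1, lay at the threshold (33.4 ± 2.65 against 69.7 ± 4.31 CPM) and was not called without kidney replicate 4, at -0.985. Abcc2, the apical conjugate pump, was at a like level (194 ± 28.4 against 209 ± 28.3 CPM).

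Genes of lipid, sterol and bile acid absorption were mostly higher in small intestine. Of 32 tested genes of 33 listed, 4 were higher in kidney and 22 in small intestine, against 20.9% and 20.7% of all tested genes. The median was -3.89, and 6 were not called. Npc1l1, the sterol importer that ezetimibe blocks, stood at 675, 586, 405 and 531 CPM in small intestine with 2 reads in kidney, and the sterol exporters Abcg5 and Abcg8 stood at 0.222 ± 0.289 against 229 ± 36.2 CPM and 0.42 ± 0.152 against 166 ± 18.5 CPM. For chylomicron assembly, Mttp, which loads lipid onto apolipoprotein B, stood at 14.6 ± 1.35 against 570.4 ± 85.9 CPM, Apob at 83.6 ± 4.76 against 430.1 ± 66.9 CPM, and Apoa4 at 2.79 ± 1.51 against 1642 ± 549 CPM. The enzymes of triglyceride synthesis Mogat2 (15.7 ± 2.26 against 279 ± 42.7 CPM) and Dgat1 (34.9 ± 2.03 against 842 ± 152 CPM) were higher in small intestine, whereas Dgat2 was at a like level (126 ± 9.47 against 158 ± 38.3 CPM, interval -0.61 to -0.03). Fatty acid binding, uptake and activation were each split among relatives. Fabp1 (4.28 ± 0.236 against 1591 ± 559 CPM), Slc27a4 (33.7 ± 4.42 against 458 ± 119 CPM) and Acsl5 (65.2 ± 3.02 against 774 ± 164 CPM) were higher in small intestine. Their relatives Fabp3 (29.96 ± 5.6 against 1.04 ± 0.519 CPM), Slc27a2 (1532 ± 49.9 against 69.9 ± 12.4 CPM) and Acsl1 (321 ± 31.4 against 37.97 ± 2.68 CPM) were higher in kidney.

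Slc10a2, the apical sodium-bile acid carrier of ileum and proximal tubule, went against its group and was called higher in kidney. It stood at 119.6, 105, 122 and 147 CPM in kidney and 84.6, 58.1, 54.2 and 11.8 CPM in small intestine, where replicate 4 was far below the others, as it was for the ileal genes Fabp6 and Fgf15 (50.7, 52.4, 35.4 and 16.4 CPM). The groups did not overlap, and the log2 fold change was 1.21 ± 0.27 (adjusted p = 6.61e-04). Without small intestine replicate 4 it was 0.908 and no longer past 2-fold, and without the 3 libraries that stand apart it was 0.684. The basolateral bile acid exporter subunits Slc51a (22.6 ± 3.31 against 368 ± 56.1 CPM) and Slc51b (42.7 ± 9.87 against 161 ± 32.5 CPM) were higher in small intestine, and Nr1h4, the bile acid receptor FXR, was at a like level (60.2 ± 3.33 against 45.4 ± 7.45 CPM).

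Protein and vitamin uptake by endocytosis showed a receptor complex that both tissues shared beside one that they did not. Of 27 tested genes of 29 listed, 12 were higher in kidney and 7 in small intestine, against 20.9% and 20.7% of all tested genes. The other 8 were not called, and the median was 0.87. Cubn (cubilin) and Amn (amnionless) form the receptor that takes up cobalamin with intrinsic factor in the ileum and filtered proteins in the proximal tubule. Cubn stood at 296, 279.5, 279.6 and 322 CPM in kidney and 374, 245, 232 and 243 CPM in small intestine, and Amn at 129, 151, 149 and 157 CPM and 299, 231, 189 and 223 CPM. Both were at like levels, with intervals of -0.17 to 0.38 and -0.94 to -0.43, and Cubn overlapped between the groups. Lrp2 (megalin), the partner receptor of the tubule, stood at 1625, 1479.7, 1579 and 1731 CPM in kidney and 0.368, 0.354, 0.589 and 1.82 CPM in small intestine, with a log2 fold change of 11.04 ± 0.21 (adjusted p = 3.48e-18). Dab2, the adaptor of megalin (337 ± 12.3 against 8.53 ± 3.08 CPM), and Lrpap1, its chaperone (300.2 ± 25.8 against 25.8 ± 3.23 CPM), were higher in kidney, as was Tcn2, the cobalamin carrier protein of blood (853 ± 17.1 against 295 ± 38.9 CPM).

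Folate carriers were exchanged: the folate receptor Folr1 stood at 316 ± 13.6 against 0.353 ± 0.252 CPM, and the proton-coupled folate carrier Slc46a1 at 21.1, 20.2, 18.9 and 17.6 CPM in kidney and 75, 61.99, 61.9 and 146 CPM in small intestine. Small intestine replicate 4 was highest for Slc46a1, which with all libraries had a log2 fold change of -2.12 ± 0.23 and without that library -1.77. Vitamin C carriers went opposite ways, the epithelial Slc23a1 at 292 ± 24.6 against 44.5 ± 15.8 CPM and the widespread Slc23a2 at 11.1 ± 1.88 against 31.1 ± 8.47 CPM. The apical riboflavin carrier Slc52a3 was higher in small intestine (14.96 ± 5.27 against 92.4 ± 30.5 CPM), with a log2 fold change of -2.64 ± 0.23, and -3.26 without the 3 libraries that stand apart.

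The scaffold of the microvillus was richer in small intestine by count. Of its 22 members with at least 20 CPM in both tissues, 4 were at like levels, against 67.8% of all tested genes of that abundance. Of 28 tested genes of 28 listed, 3 were higher in kidney and 20 in small intestine, against 20.9% and 20.7% of all tested genes. The median was -1.86, and 5 were not called. Vil1 (villin), which bundles and severs the actin core, stood at 98.5, 87.01, 77.7 and 91.7 CPM in kidney and 1617, 1280.1, 1007 and 1286 CPM in small intestine, with a log2 fold change of -3.87 ± 0.14. Myo1a, the myosin that ties the core to the membrane, stood at 0.274, 0.561, 0 and 0 CPM and 1059, 797, 678 and 899 CPM, absent or at 1 or 2 reads in each kidney library, 4004-fold higher in small intestine with a 95% counting interval of 1369.5 to 19417. The protocadherins that link the tips of microvilli, Cdhr2 (30.9 ± 1.88 against 719 ± 122 CPM) and Cdhr5 (128 ± 4.7 against 829.9 ± 153 CPM), were higher in small intestine and present in kidney. So were their cytoplasmic partners Ush1c (54.5 ± 3.49 against 148 ± 15.1 CPM), Anks4b (33.9 ± 3.98 against 114 ± 18.9 CPM) and Myo7b (40.9 ± 2.53 against 281 ± 47.1 CPM). Calml4, the light chain of Myo7b, was at a like level (204 ± 23.02 against 280.3 ± 33.03 CPM), with a log2 fold change of -0.46 ± 0.11. Ezr (ezrin), the membrane-to-actin linker, lay at the threshold, 335 ± 21.6 against 688 ± 135 CPM and -1.04 ± 0.12, and its call was lost without kidney replicate 1 (-0.997), kidney replicate 2 (-0.986) or small intestine replicate 1 (-0.901).

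The actin-capping protein Eps8 (95.1 ± 8.27 against 107 ± 15.8 CPM, interval -0.39 to 0.07), the recycling GTPase Rab11a (86.3 ± 4.23 against 90.5 ± 6.86 CPM, interval -0.26 to 0.13) and the myosin Myo6 (332 ± 15.7 against 195 ± 7.91 CPM, interval 0.58 to 0.95) were at like levels. The 3 members higher in kidney were PDZ scaffold genes and a partner: Pdzk1 (40.7 ± 6.21 against 13.6 ± 3.51 CPM), Slc9a3r2 (53.7 ± 6.9 against 25.6 ± 4.83 CPM) and Pdzk1ip1, the small membrane protein that binds Pdzk1 (829.6 ± 33.6 against 6.8 ± 1.24 CPM). Slc9a3r2 lay at the threshold and was not called without small intestine replicate 1 (0.948) or with library totals (0.870). Its relative Slc9a3r1 was higher in small intestine, at 181 ± 22 against 812 ± 144 CPM. Pdzk1ip1 stood at 863, 825, 785 and 845 CPM in kidney and 5.15, 8.15, 7.07 and 6.82 CPM in small intestine, without overlap. This was the largest difference of the list in that direction, with a log2 fold change of 6.92 ± 0.14.

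**Figure D4:**
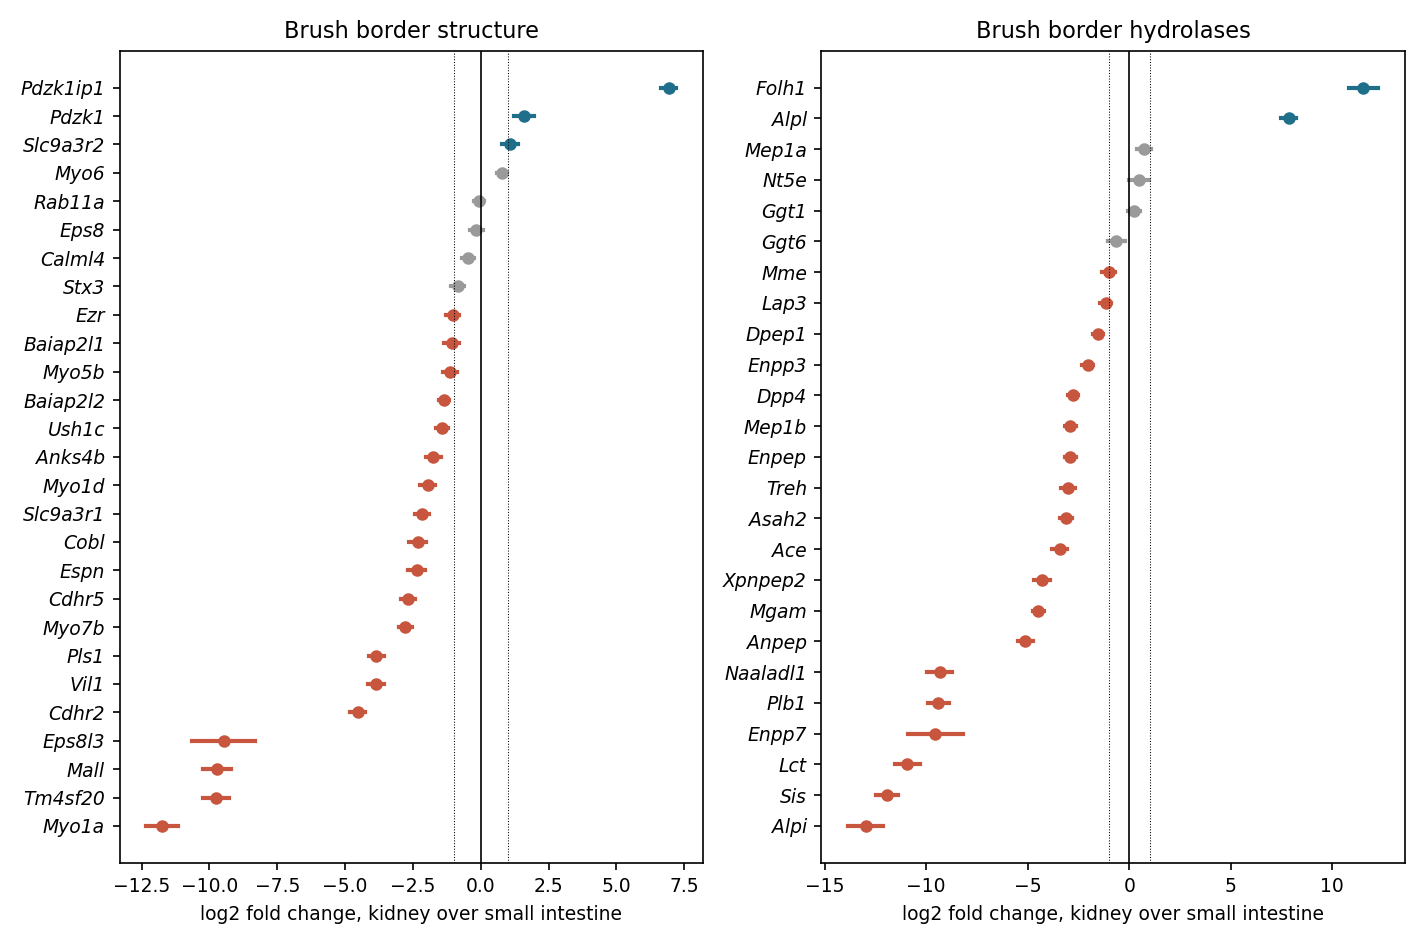
Log2 fold change of kidney over small intestine with its 95% interval for 27 of the 28 tested genes of brush border structure (left) and 25 of the 26 tested brush border hydrolases (right). Blue points were called higher in kidney, red points higher in small intestine and grey points were not called, with dotted lines at -1 and 1. Points beyond 9 rest on few or no reads in the lower tissue, so their position depends on the fit.

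Junction genes divided by claudin. Of 24 tested genes of 26 listed, 9 were higher in kidney and 12 in small intestine, against 20.9% and 20.7% of all tested genes. The other 3 were not called, and the median was -1.31. The cadherins that name these epithelia were exchanged: Cdh16 (kidney-specific cadherin) stood at 538, 541, 558 and 536 CPM in kidney and 0.368, 0.354, 0 and 0 CPM in small intestine, and Cdh17 (liver-intestine cadherin) at 0.547, 0.561, 0.54 and 0 CPM and 847, 709, 661 and 707 CPM. Neither gene overlapped between the tissues. The pore-forming claudins Cldn2, of leaky proximal tubule (277 ± 19.98 against 68.7 ± 16.6 CPM), and Cldn10 (262 ± 18.4 against 0.592 ± 0.495 CPM) were higher in kidney, as were Cldn16 and Cldn19, which set the magnesium and calcium pathway of the thick ascending limb (11.6 ± 2.61 and 34.1 ± 3.31 CPM, no intestinal read). Cldn15, the sodium pore of the intestine (13.8 ± 3.5 against 444 ± 69.8 CPM), with Cldn3 (12.04 ± 1.38 against 347 ± 65.6 CPM) and Cldn7 (9.68 ± 1.46 against 316 ± 20.1 CPM), was higher in small intestine. E-cadherin, Cdh1, stood at 90.7 ± 13.6 against 297 ± 26.98 CPM and Epcam at 138 ± 14.1 against 1908 ± 257 CPM, both higher in small intestine, and the junction scaffold Tjp1 was at a like level (37.3 ± 4.56 against 42.9 ± 7.25 CPM).

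Most transcription factors on the list, which holds known factors of either organ, were called. Of 45 tested genes of 51 listed, 25 were higher in kidney and 17 in small intestine, against 20.9% and 20.7% of all tested genes. The median was 2.60, and 3 were not called. Hnf4a, a nuclear receptor that drives genes of many absorbing epithelia, stood at 322, 346, 315 and 343 CPM in kidney and 428, 386, 402 and 368 CPM in small intestine and was at a like level, with an interval of -0.44 to -0.07. Its relative Hnf4g stood at 3.56, 2.81, 3.51 and 1.82 CPM and 66.2, 71.9, 57.8 and 73.7 CPM, higher in all intestinal libraries, with a log2 fold change of -4.49 ± 0.17. The intestinal homeobox genes Cdx2 (61.4, 57.03, 61.9 and 49.6 CPM, no kidney read) and Cdx1 (157 ± 23.2 CPM, 2 kidney reads) were higher in small intestine.

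The Gata factors Gata4 (0.0759 ± 0.152 against 82.9 ± 16.1 CPM), Gata5 (0.205 ± 0.259 against 50.5 ± 7.42 CPM) and Gata6 (5.43 ± 2.31 against 98.5 ± 9.97 CPM) were higher in small intestine. So were Isx, a regulator of vitamin A uptake (0.0675 ± 0.135 against 64.2 ± 18.6 CPM), Creb3l3, a lipid regulator (0.203 ± 0.259 against 322 ± 93.4 CPM), and Klf5, a factor of dividing crypt cells (10.4 ± 1.98 against 808 ± 80.8 CPM). In kidney stood the developmental factors of the nephron: Pax2 (34.8 ± 4.8 CPM, no intestinal read), Pax8 (65.2 ± 7.33 against 7.55 ± 2.83 CPM), Emx2 (42.2 ± 3.59 CPM, no intestinal read), Lhx1 (32.9 ± 4.32 against 0.162 ± 0.189 CPM) and Tfap2b (109, 99.4, 101 and 106 CPM, no intestinal read, at least 386-fold higher in kidney). The Hox genes of the trunk followed, with Hoxa9 at 48.4 ± 4.21 against 0.0737 ± 0.147 CPM and Hoxa10 at 41.3, 42.4, 41.6 and 48.9 CPM in kidney and 0 in small intestine. No tested Hox gene of the list was higher in small intestine.

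Genes of sugar synthesis and fructose breakdown were called in both directions. Of 21 tested genes of 21 listed, 9 were higher in kidney and 7 in small intestine, against 20.9% and 20.7% of all tested genes. The other 5 were not called, and the median was 0.45. Fbp1, the fructose bisphosphatase of gluconeogenesis, stood at 831, 818, 888 and 839 CPM in kidney and 30.5, 38.6, 42.4 and 59.1 CPM in small intestine, and Fbp2, known as the muscle form, at 21.3, 24.4, 21.6 and 29.1 CPM and 324, 269.9, 248 and 327 CPM. The 2 genes were exchanged without overlap, with log2 fold changes of 4.32 ± 0.15 and -3.60 ± 0.13. Pck1 (1158 ± 202 against 122 ± 33.5 CPM) and G6pc (326 ± 59.6 against 27.2 ± 5.35 CPM), the entry and exit enzymes of gluconeogenesis, were higher in kidney. Khk, which starts fructose breakdown, was at a like level (478 ± 17.3 against 349.9 ± 69.8 CPM, interval 0.21 to 0.70). The pyruvate kinase Pkm (231 ± 22.2 against 531 ± 113 CPM) and the alanine aminotransferase Gpt (14.97 ± 2.29 against 223 ± 45.9 CPM) were higher in small intestine.

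The genes of fatty acid oxidation that were called were all higher in kidney. Of the 22 tested genes of 23 listed, 7 were higher in kidney, 0 were higher in small intestine and 15 were not called, with a median of 0.52, and 12 of the 21 with at least 20 CPM in both tissues were at like levels. The background was 41.6% called among all tested genes and 67.8% at like levels among those of that abundance. Those called included Acadm, the medium-chain dehydrogenase (619 ± 128 against 81.3 ± 1.86 CPM), and Oxct1, which lets tissues burn ketone bodies (1046, 1031, 1138 and 1082 CPM in kidney and 121, 119, 114 and 109 CPM in small intestine). Hadha, a subunit of the trifunctional enzyme, was at a like level (242 ± 14.1 against 269 ± 45.04 CPM), and Hadh, the short-chain dehydrogenase, was not called (342 ± 14.4 against 633 ± 92.8 CPM), but was higher in small intestine at -1.07 with library totals.

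Kidney endocrine genes were checked as well. Of 11 tested genes of 14 listed, 8 were higher in kidney and 2 in small intestine, against 20.9% and 20.7% of all tested genes. Ace was among those higher in small intestine, and 1 gene was not called. Ren1, the renin of juxtaglomerular cells, stood at 42.96, 69.9, 54.8 and 56.8 CPM in kidney and 0.368, 0, 0 and 0.91 CPM in small intestine, 208-fold higher in kidney with a 95% counting interval of 70.9 to 1009.8. Egf, made by the distal tubule, stood at 939.9 ± 36.5 against 3.26 ± 1.36 CPM, and Hsd11b2, which shields the mineralocorticoid receptor from glucocorticoids, at 173 ± 2.09 against 13.9 ± 1.6 CPM. Cyp27b1, the enzyme that activates vitamin D, was too low to be tested (2.19, 7.58, 2.7 and 4.25 CPM in kidney).

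Genes of mucosal defence were mostly higher in small intestine. Of 15 tested genes of 22 listed, 3 were higher in kidney and 11 in small intestine, against 20.9% and 20.7% of all tested genes. The other 1 was not called. The median was -6.25, and -5.91 with members at 0 in a tissue put at their bound. Reg3b and Reg3g, antibacterial lectins, stood at 2085 ± 537 and 799.96 ± 272 CPM in small intestine, and Pigr, which carries IgA across the epithelium, at 25.9 ± 2.86 against 1486 ± 349.9 CPM. In kidney stood Defb1, an antimicrobial peptide of urine (291 ± 21.9 against 0.254 ± 0.172 CPM), Lcn2, which withholds iron from bacteria (6.34 ± 1.62 against 2.55 ± 0.515 CPM), and Umod. The call of Lcn2 was lost in an edgeR fit of all 60 libraries (adjusted p = 0.309).

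Markers of other cell types differed as well. Among all tested genes 20.9% were higher in kidney and 20.7% in small intestine. All 10 Paneth, 10 goblet and tuft and 12 enteroendocrine genes tested were higher in small intestine, among them the mucin Muc2 (1.69 ± 1.23 against 931 ± 103 CPM), the goblet cell lectin Zg16 (1.94 ± 1.38 against 6233 ± 1225 CPM) and the incretin Gip (0.207 ± 0.263 against 119 ± 21.04 CPM). The 18 crypt and cell cycle genes were all higher in small intestine too, with a median of -5.12. They included the proliferation marker Mki67 (2.73 ± 0.665 against 81.5 ± 15.7 CPM), the stem cell receptor Lgr5 (1.11 ± 0.423 against 19.98 ± 4.14 CPM) and Olfm4, of crypt base cells (5.001 ± 0.501 against 613 ± 164 CPM). Of 19 tested leukocyte genes, 18 were higher in small intestine, led by the IgA heavy chain Igha (1.7 ± 0.619 against 2749.7 ± 518 CPM) and the joining chain Jchain (0.783 ± 0.49 against 392 ± 117 CPM), with the pan-leukocyte gene Ptprc at 10.7 ± 3.99 against 33.2 ± 6.72 CPM. Of 14 genes of smooth muscle and enteric neurons, 12 were higher in small intestine, such as the visceral actin Actg2 (1.53 ± 0.433 against 284 ± 65.2 CPM) and smooth muscle myosin Myh11 (21.9 ± 6.35 against 316 ± 30.3 CPM). Summed over the list, leukocyte genes took 306 to 370.01 CPM in kidney and 3743 to 5156 CPM in small intestine, and muscle and neuron genes 263 to 325 and 1873 to 2245 CPM. Their part in the lower kidney and higher intestinal levels of other genes was not tested.

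Genes of endothelium and fibroblasts were called in both directions, and their summed levels were 830 to 883 CPM in kidney and 573 to 1066 CPM in small intestine. For the counts that follow, the shares of all tested genes were 20.9% higher in kidney and 20.7% higher in small intestine. Of 16 tested genes of endothelium and fibroblasts, 7 were higher in kidney, including Emcn (62.3 ± 6.18 against 8.8 ± 3.47 CPM) and Ehd3, of glomerular endothelium (31.5 ± 4.54 against 4.47 ± 0.976 CPM), and 4 were higher in small intestine. The latter included Lyve1, of lymphatic vessels (1.52 ± 0.929 against 21.9 ± 5.27 CPM), and the collagen gene Col3a1 (45.5 ± 10.1 against 195 ± 67.95 CPM). Dcn, a fibroblast proteoglycan, was at a like level (106 ± 12 against 135 ± 21.4 CPM). Of 7 tested genes of adipocytes and red cells, 3 were higher in kidney and 4 were not called. The 3 were the adipocyte genes Adipoq (28.7 ± 6.82 against 3.32 ± 1.66 CPM), Plin1 (25.4 ± 7.16 against 1.09 ± 0.824 CPM) and Cfd, the last standing at 169.9, 205, 319 and 356 CPM in kidney and 12.5, 8.5, 14.7 and 20.02 CPM in small intestine. Of 7 tested hepatocyte genes, 6 were higher in kidney, the albumin gene Alb not being called (22.9 ± 4.43 against 15.5 ± 7.94 CPM). With all libraries 0 of them were higher in small intestine. When any 1 of the 4 intestinal libraries was left out, 1 gene of the list was. Only Star and Akr1b7 of the adrenal list were tested, and Star was called higher in kidney (adjusted p = 0.0079) although the groups overlapped. Without kidney replicate 4 its log2 fold change fell from 3.24 ± 1.01 to 0.439 and it was not called. Akr1b7, a reductase of adrenal and gut, was not called (14.1 ± 24.4 against 35.2 ± 12.2 CPM), but was called higher in small intestine without kidney replicate 4, at -4.11. By the same edgeR test it was also called with library totals (-1.53, adjusted p = 0.0397) and in a fit of all 60 libraries (-1.32, adjusted p = 0.0381). The fit with no filter called it too (-1.36), but gave far smaller p-values than the main fit. For Slc46a1 the adjusted p of the edgeR test was 5.67e-58 with no filter and 1.01e-07 in the main fit, so no weight is put on that call. Of the 4 tested genes of the pancreas list, Ctrb1, Cpa1 and Prss2 were higher in small intestine. Without small intestine replicate 4 their log2 fold changes were -8.69, -7.52 and -7.83, and they were still called. Ctrb1 stood at 6.62, 9.92, 28.9 and 131 CPM in small intestine, highest in replicate 4, and at 0 in kidney, and the call of Cpa1 was lost in the fit of all 60 libraries (adjusted p = 0.0514). With any 1 library left out, 5 or 6 genes of the list were higher in small intestine, since more of them passed the filter on reads. Cela1, an elastase that tissues other than pancreas also make, was higher in kidney (145 ± 9.67 against 32.4 ± 26.1 CPM), with a log2 fold change of 2.21 ± 0.29, and 2.83 without small intestine replicate 4.

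To find what both epithelia have and the other 13 tissues lack, the mean of kidney and small intestine was compared with the mean of the others in a limma fit of all 60 libraries. In that contrast 2861 of 18562 genes (15.4%) were higher, and 72 genes (0.388%) also had at least 10 CPM in both tissues and their lowest kidney or intestinal library above the highest of the other 52. Of these 72 genes, 16 had a symbol that starts with Slc, against 349 of the 18562 tested. Between kidney and small intestine themselves, 14 of the 72 were higher in kidney, 17 were higher in small intestine and 41 were not called. The highest of the other tissues was the colon for 29 of them, liver for 12, skin for 10, brain for 7 and lung for 6.

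Dnase1, a nuclease secreted into urine and gut, led by the ratio of the lower of both means to the highest other tissue, 125 with a mean of 618 ± 158 CPM in kidney, 210.4 ± 60.1 CPM in small intestine and 1.68 CPM in brain, on the scale of the fit of all tissues. It was followed by Erich4 (ratio 60.9), Cubn (60.1), the lactate carrier Slc5a12 (55.2), Ggt1 (47), Slc7a9 (39.6), Slc5a11 (38.1), Nat8, which makes mercapturates from cysteine conjugates (32.8), Treh (28.2) and Amn (18.4). In the fit of the 8 libraries, Dnase1 stood at 519, 621, 525 and 323 CPM in kidney and 190.4, 135, 128 and 237 CPM in small intestine, Slc5a12 at 285, 250.4, 289 and 289.6 CPM and 82.7, 60.2, 37.7 and 39.1 CPM, and both were higher in every kidney library. Erich4 (51.5 ± 9.08 against 75.7 ± 16.8 CPM) and Nat8 (48.4 ± 3.88 against 75.8 ± 23.6 CPM) were not called between the tissues. For 21 of the 72 genes the ratio was at least 4. The number of shared genes depends on the scaling: with library totals 47 genes met the criteria, 40 of them among the 72.

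**Figure D5:**
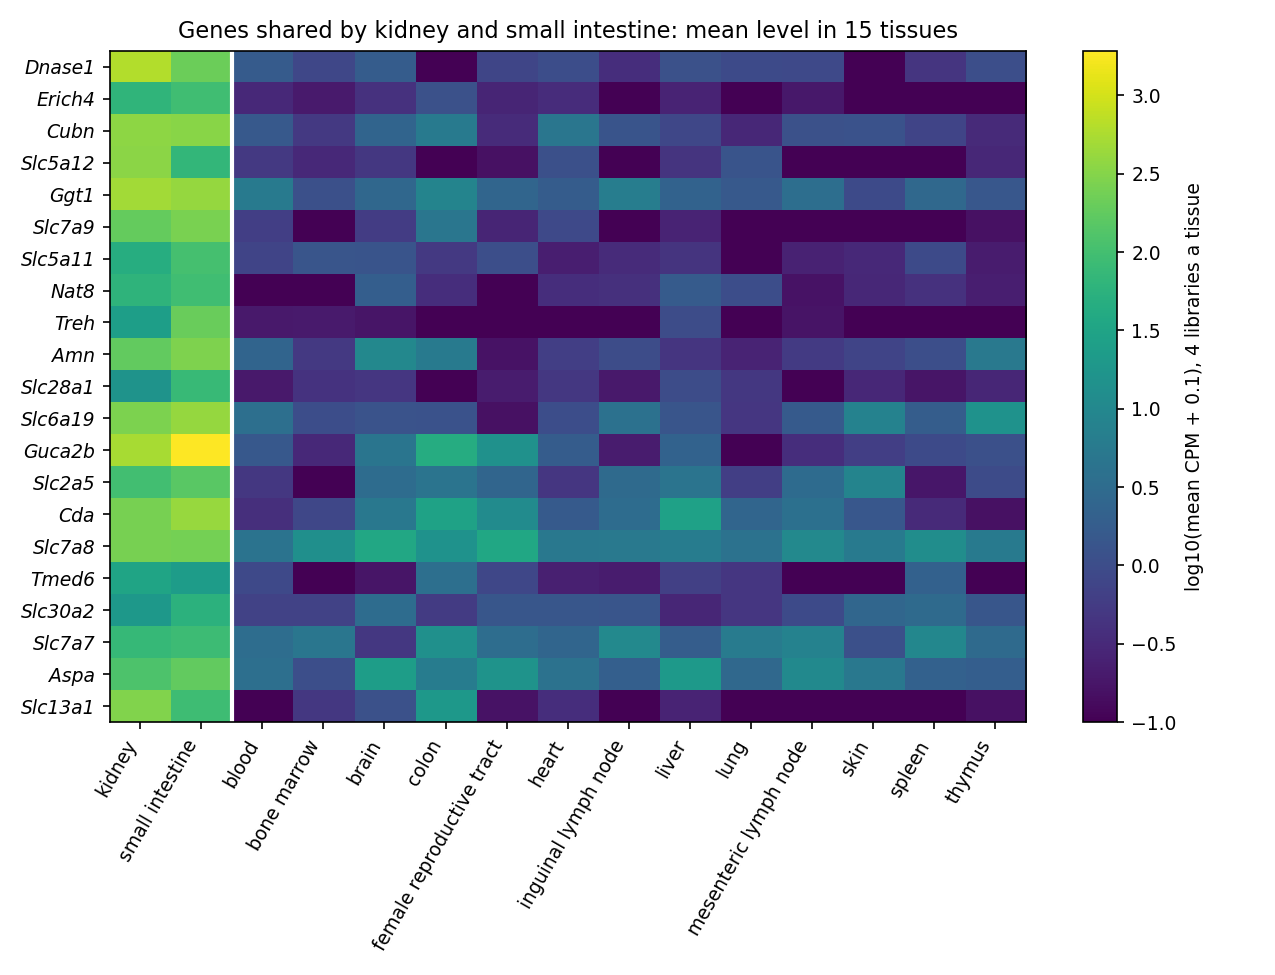
Mean level of the 21 shared genes with a ratio of at least 4 in the 15 tissues, as log10 of CPM with an offset of 0.1, 4 libraries a tissue. Kidney and small intestine, left of the white line, are bright in every row, and the colon has the next highest mean for several rows.

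Over all lists together, 180 of the 504 tested genes were higher in kidney and 230 higher in small intestine, against 20.9% and 20.7% of all tested genes. Many list members were picked as markers of a tissue, with earlier results of these data known, so more calls were built in. A further 61 were at like levels, which only genes of at least 20 CPM in both tissues could reach, and 67.8% of all such genes did.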

How the data were processed

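RNA of kidney and small intestine was read at its 3′ ends without molecular identifiers, on a NextSeq500, per the labels' protocols. The deposited values are counts, whole reads assigned to genes, which the authors made with FastQC, STAR and featureCounts on build mm10 per the submitters' processing notes, with versions and strand setting not given in the sources used here. The table has 54532 genes, of which 54495 matched GENCODE release 21 by identifier, all columns were used, and 27622 had no read in the 8 libraries. With edgeR 4.0.16 in R 4.3.3, genes were filtered (filterByExpr, minimum count 10, total 15), scaled by TMM and fitted on the 8 libraries with tissue as the only term (glmQLFit, glmQLFTest, two-sided, Benjamini-Hochberg over 12775 genes). SE is the log2 fold change over the root of F. The contrast with the other 13 tissues used limma 3.58.1 (log2 CPM, prior count 2), and DESeq2 1.42.0 was an alternative. Code was tested on simulated data. Bounds and intervals pool 4 libraries and cover counting error only. The members and gene lists were chosen with earlier results of these data known. Named were the 12 genes with the largest changes and the 5 with the highest levels in each direction, list members of at least 5 CPM or at like levels, list members against their majority, and the 10 leading shared genes, and others are said to be chosen after their values were seen. Some genes that this rule names are not reported here. Within 1000 bases of their 3′ ends, 25 of the named genes overlap another gene, nearly always on the opposite strand, and may share its reads, among them Slc34a1, Slc5a2, Slc5a10, Slc6a20a, Slc6a20b, Slc3a1, Slc7a7, Vil1, Ezr, Pdzk1, Umod and Treh.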

Additional observations from a re-analysis of the deposited data

Results flagged for a closer look

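Among the named genes, groups of 4 libraries with a mean of at least 5 CPM were examined for a library whose gap to the nearest other took more of the whole range than Dixon's 95% critical value allows. This was so for 17 of 386 groups, where chance gives about 1 in 20.

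In kidney replicate 4 the adrenal genes lay far above the other kidney libraries, and Hoxa10 lay above them by a small step. Hsd3b1 stood at 95.6 CPM in kidney replicate 4 and at 0 to 4.05 CPM in the other 3. Akr1b7 stood at 50.7 CPM in kidney replicate 4 and at 1.12 to 2.46 CPM in the other 3. Hoxa10 stood at 48.9 CPM in kidney replicate 4 and at 41.3 to 42.4 CPM in the other 3. Star stood at 189 CPM in kidney replicate 4 and at 3.83 to 12.1 CPM in the other 3. Cyp11a1 stood at 64.4 CPM in kidney replicate 4 and at 0 to 1.62 CPM in the other 3. Cyp11b1 stood at 46.7 CPM in kidney replicate 4 and at 0 to 1.62 CPM in the other 3. Cyp21a1 stood at 53.1 CPM in kidney replicate 4 and at 0 to 2.16 CPM in the other 3.

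In small intestine replicate 4 genes of duodenal glands and pancreas, with Alpi and Slc46a1, lay apart. Alpi stood at 1396 CPM in small intestine replicate 4 and at 706 to 760.3 CPM in the other 3. Cpa1 stood at 57.3 CPM in small intestine replicate 4 and at 3.68 to 12.4 CPM in the other 3. Muc6 stood at 403 CPM in small intestine replicate 4 and at 1.06 to 25.05 CPM in the other 3. Slc46a1 stood at 146 CPM in small intestine replicate 4 and at 61.9 to 75 CPM in the other 3. Tff2 stood at 2208 CPM in small intestine replicate 4 and at 6.98 to 274 CPM in the other 3.

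The other genes that lay apart in a single library differed from the rest by smaller steps. Cubn stood at 374 CPM in small intestine replicate 1 and at 232 to 245 CPM in the other 3. Slc5a12 stood at 250.4 CPM in kidney replicate 2 and at 285 to 289.6 CPM in the other 3. S100g stood at 1516 CPM in kidney replicate 1 and at 1394 to 1399.98 CPM in the other 3. Myo6 stood at 183 CPM in small intestine replicate 2 and at 198 to 201 CPM in the other 3. Abcc2 stood at 167 CPM in small intestine replicate 3 and at 219 to 229 CPM in the other 3.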

How the results depend on the processing

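The counts of called genes stayed within 1.5 times under every alternative: 2652 and 2658 (kidney and small intestine) with DESeq2 size factors, 2290 and 3054 with library totals, 2500 and 2356 for nuclear protein-coding genes, 3924 and 3954 with no filter, 2657 and 2663 with DESeq2's Wald test, 3449 and 3516 in a fit of all 60 libraries, and 2714 to 2923 and 2768 to 2796 with a library left out. Without kidney replicate 4 and small intestine replicates 3 and 4, chosen after seeing the data, they were 3100 and 2884, with 95.9% of the calls kept. The 72 shared genes became 47 with library totals and 47 with a minimum of 50 CPM, 69 to 74 with a library left out and 81 without the 3 libraries. Deviations of same-numbered kidney and intestinal libraries correlated weakly, at 0.0282, 0.0195, 0.0667 and 0.0289. Each kidney library still correlated best with the intestinal library of its own number, in 4 of 4 cases. Whether same-numbered libraries came from one mouse was not tested. A fit with the replicate block gave 2680 and 2647 calls and 72 shared genes. With that block Akr1b7 became called, at -1.90, and no other named gene gained or lost its call. Of 246 named and tested genes, 231 kept direction and call under all 16 alternatives. Changes of sign were seen in Slc40a1 (-0.0155 to 0.917 with a library left out), Cubn (-0.0822 with library totals, -0.129 without the 3 libraries), Slc5a9 (-0.113 with library totals, -0.00904 without the 3 libraries) and Slc7a8 (-0.169 with library totals, -0.0793 without the 3 libraries, -0.0838 to 0.170 with a library left out), none of them called. Genes of few reads are limited by depth: 3 reads over the 4 libraries are 0.211 CPM in kidney and 0.269 CPM in small intestine.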

Other observations

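Glutathione peroxidases, chosen after their values were seen, were divided by gene. Gpx1, the cytosolic form, stood at 2081, 2144, 2023 and 2027 CPM in kidney and 508, 519.6, 552 and 540.4 CPM in small intestine, and Gpx2, the gastrointestinal form, at 153, 166, 148 and 156 CPM in small intestine with 1 kidney read. Gpx1 was higher in every kidney library, with a log2 fold change of 1.96 ± 0.09, and Gpx2 in every intestinal library, while Gpx4, which repairs lipid peroxides, was not called (258 ± 18.4 against 194 ± 37.5 CPM, interval 0.16 to 0.66). The guanylin pathway, chosen likewise, was read mainly in small intestine: the hormone Guca2a stood at 5.05 ± 0.344 against 1334 ± 313 CPM and its receptor Gucy2c at 214, 164, 159 and 187 CPM in small intestine with 1 kidney read. Guca2b, uroguanylin, which acts on salt excretion by the kidney, stood at 406, 418, 431 and 485 CPM in kidney and 2068, 1533, 1037 and 1661 CPM in small intestine, present in every library of both tissues and higher in the intestinal ones, with a log2 fold change of -1.86 ± 0.15.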
